A study of Mus musculus with 2 samples.

Results

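The sarcomeric myosin heavy chain genes Myh1, Myh2, Myh3, Myh4, Myh6, Myh7, Myh8 and Myh13 were measured in a calf muscle, the gastrocnemius, in 1 control mouse and in 1 mouse depleted of PDGFRα-positive mesenchymal progenitors. They were chosen by gene symbol in the annotation of the array's probes: 8 of 19321 named genes, carried by 10 of 23473 probes. Control muscle came from a wild type:R26-DTA littermate and depleted muscle from a Pdgfra-CreER:R26-DTA mouse, and each group held 1 array. Both were female, aged 10 weeks, carried the R26-DTA allele and received tamoxifen from 9 weeks of age on 5 days in a row. Muscles were taken and frozen 2 days after dosing ended. The Pdgfra promoter drives the CreER recombinase, which tamoxifen activates and which switches on diphtheria toxin A and so kills the cell that makes it. The labels name mesenchymal progenitors, not myofibres, as the depleted cells, and because the control carried no CreER, its presence and the depletion cannot be told apart. The comparison was made to find genes whose expression is altered once these cells are removed.

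Myosin heavy chain is the motor protein of the thick filament. Each heavy chain has a head that binds actin and splits ATP and a coiled tail that packs into the filament, and the isoform largely sets how fast a fibre shortens. Adult limb muscle of the mouse uses the slow chain Myh7 (type I) and the fast chains Myh2 (IIa), Myh1 (IIx) and Myh4 (IIb), in order of rising speed. Myh3 (embryonic) and Myh8 (perinatal) serve developing and regenerating fibres, Myh13 the eye and throat muscles, and Myh6 the heart.

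Apart from Myh6 and Myh7, which neighbour each other elsewhere, the members lie in 1 cluster. In the RefSeq table of GRCm38.p6 its order is Myh3, Myh2, Myh1, Myh4, Myh8, Myh13, with no other protein-coding gene between them. The 250 bases upstream of the annotated starts of Myh2, Myh1, Myh4 and Myh8 are shown because these neighbours share a stretch of sequence and include all 3 fast adult chains. They are RefSeq sequences of GRCm38.p6 on the plus strand, at chr11:67170777-67171026 for Myh2, chr11:67199852-67200101 for Myh1, chr11:67237562-67237811 for Myh4 and chr11:67276874-67277123 for Myh8. Capitals mark the 14-base word that all 4 share.
Myh2: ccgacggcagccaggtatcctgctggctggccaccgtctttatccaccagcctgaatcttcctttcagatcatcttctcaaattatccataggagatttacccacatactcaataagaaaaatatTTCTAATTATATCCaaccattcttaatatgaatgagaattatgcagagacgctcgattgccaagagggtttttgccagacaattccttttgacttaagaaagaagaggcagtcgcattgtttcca
Myh1: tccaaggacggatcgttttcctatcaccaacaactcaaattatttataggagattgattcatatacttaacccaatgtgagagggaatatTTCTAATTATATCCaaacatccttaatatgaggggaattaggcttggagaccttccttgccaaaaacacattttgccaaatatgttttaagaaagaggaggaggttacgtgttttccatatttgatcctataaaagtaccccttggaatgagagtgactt
Myh4: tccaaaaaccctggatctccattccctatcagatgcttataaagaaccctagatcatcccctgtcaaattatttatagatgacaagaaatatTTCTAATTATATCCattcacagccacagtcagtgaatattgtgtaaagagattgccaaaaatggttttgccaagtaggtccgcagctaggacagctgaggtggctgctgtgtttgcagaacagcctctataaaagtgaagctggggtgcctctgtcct
Myh8: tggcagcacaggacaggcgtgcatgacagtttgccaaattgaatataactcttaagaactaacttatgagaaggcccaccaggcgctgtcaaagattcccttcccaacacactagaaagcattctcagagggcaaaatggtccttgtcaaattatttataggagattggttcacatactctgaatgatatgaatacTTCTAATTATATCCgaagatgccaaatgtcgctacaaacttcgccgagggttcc

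The word TTCTAATTATATCC was the only run of at least 10 bases present in all 4 windows. On either strand it was found in 4 of 32851 upstream windows of the same length, or 0.0122%, and these 4 were the windows of Myh2, Myh1, Myh4 and Myh8. It began 125 bases before the start of Myh2, 160 before Myh1, 158 before Myh4 and 54 before Myh8. The windows of Myh3, Myh13, Myh6 and Myh7 lacked it. The TATA box letters TATAAAA, present in 4.98% of windows, were found upstream of Myh1, Myh4 and Myh3. A match to the MEF2 site, the target of a muscle transcription factor family, was found upstream of Myh1, Myh4 and Myh8 and in 2.92% of windows. The CArG box, the target of serum response factor, matched upstream of Myh4 alone among the members and in 1.47% of windows. The E-box letters CANNTG, which MyoD-type factors bind, were in 66.2% of windows and in those of Myh4, Myh8, Myh3, Myh13, Myh6 and Myh7. All motifs were searched on both strands, and 0 matches of the other motifs overlapped the shared word in these 4 windows. These matches describe letters and not bound sites, and the array carries no data on binding.

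The arrays gave the intensity of Cy5 light at each spot, in scanner units. Pdgfra, the gene that marks the targeted cells, gave 273.1 (control) and 116.6 (depleted) in the authors' processed intensities, and its log2 ratio was -0.94. All log2 ratios are depleted over control after background correction and quantile normalization unless another scale is named, and the "deposited values" are the authors' processed intensities. A probe was above background where its spot exceeded the limit of its array (37.4 units for control, 38.5 for depleted), the mean of 2736 blank spots plus 2 SD. The defining markers of skeletal myofibres were bright on both arrays, with Acta1, the skeletal actin, at 51523 and 48426 units and Ckm, the muscle creatine kinase, at 37192 and 38087. The 8 myofibre markers had a median log2 ratio of -0.02, with the largest ratios for Pygm (-0.38), Mylpf (-0.30), Ttn (-0.19) and Tnnt3 (0.04). This median was 0.04 without normalization between arrays, -0.26 with 75th percentile scaling, -0.40 in deposited values and -0.51 with cyclic loess. The 7 listed markers of mesenchymal progenitors had a median of -0.97 and all lay below 0, against 52.4% of all genes compared. Among them Lum (-1.84), Dpt (-1.23) and Smoc2 (-1.16) were at least 2-fold lower. The 4 of macrophages had a median of 0.72, with Lyz2 at 1.22, C1qa at 0.74, Cd68 at 0.71 and Adgre1 at 0.12, but Lyz2 came out at -7.13 with the local background subtracted. The 4 of smooth muscle had a median of 0.56, with Tagln at 0.68, Acta2 at 0.61, Cnn1 at 0.52 and Myh11 at 0.39. Of the 3 erythroid markers measured, Hbb-bt and Hbb-bs were at -3.30 and -2.47 and Alas2 at -0.64. The endothelial markers Pecam1, Kdr and Cdh5 were at 0.40, 0.14 and 0.04, and the muscle stem cell markers Cdh15, Chodl, Myf5 and Pax7 at 0.58, 0.15, 0.05 and 0.00. With the local background subtracted the medians of these last lists turned to -0.18 and -0.15. Summed over each list, deposited values in control and depleted muscle were 7299.1 and 4425.7 for mesenchymal progenitors, 2272.8 and 5320.4 for macrophages, 1474.8 and 2438.7 for smooth muscle and 15811.3 and 2316.3 for erythroid cells. For muscle stem cells they were 221.1 and 310.1, for endothelium 277.0 and 363.7 and for myofibres 266150.7 and 193509.9. These sums carry the authors' array factors, which alone lower bright ratios by 0.44 on the log2 scale. No listed marker was at or below the background limit on either array. But Pax7 (40.19 and 42.25 units) lay below the brightest negative control spot of both arrays (40.21 and 43.20). Cdh5 did so in control (39.96 units), so neither gene gives a firm level. What part such cells had in the myosin values was not tested. In whole muscle, fewer cells of a type and less RNA per cell cannot be told apart.

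With 1 array per group there is no spread between animals, no test and no p-value. The available error is that of spots within an array. The 2 positive controls, each printed as 24 spots, had log2 ratios with an SD of 0.14 and 0.15 (n = 24), which gives a difference between 2 ratios an SD of 0.21 if myosin spots vary alike. Levels of different probes are not comparable, so the members are compared by their ratios only. Members of this family are near-identical paralogs in parts, probe sequences were not used here, and a probe may share signal with a neighbouring gene.

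No member reached a 2-fold difference. Of 8 members 0 were at least 2-fold lower, against 0.427% of the 18498 genes compared, and 0 were at least 2-fold higher, against 0.492%. The log2 ratios ran from -0.51 to 0.20 with a median of -0.10, and the median over all genes compared was -0.004. Without normalization between arrays the members' median was 0.09. Of the 8 members 5 had a ratio below 0, against 52.4% of all genes. At 1.5-fold the counts were again 0, against 1.52% of genes lower and 1.96% higher. In the authors' deposited values 0 members passed 2-fold, against 1.96% of genes lower and 2.86% higher. Myh1, Myh2, Myh4 and Myh8 belong to the brightest 10% of genes, a set in which 2-fold lower levels were found for 2.0% and 2-fold higher levels for 2.11%. Each of these counts of 0 is near its background share.

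**Figure D1:**
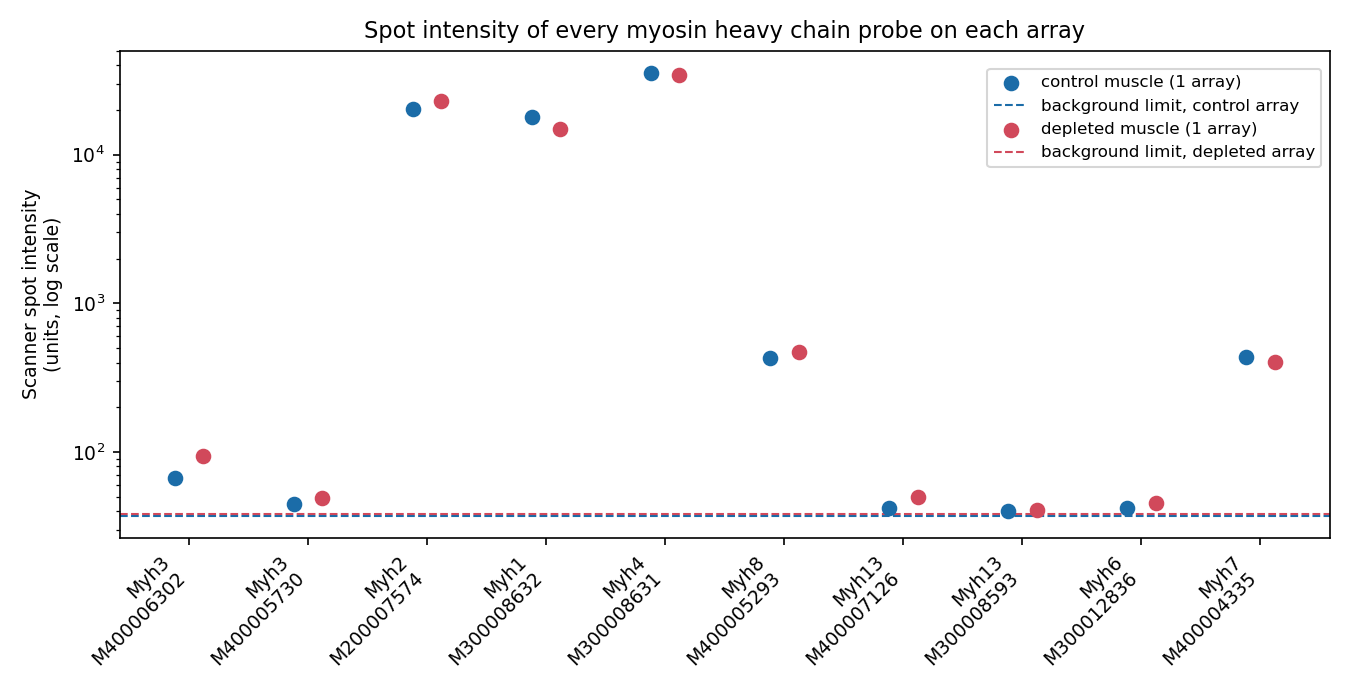
Scanner spot intensity (units, log scale) of each of the 10 myosin heavy chain probes on the array of control (blue) and of depleted muscle (red), with the 2 background limits as dashed lines at 37.4 and 38.5 units. Each point is 1 spot on 1 array, without normalization. The pairs of points lie close together, and the probes of Myh13 and Myh6 lie just above the limits. Heights of different probes are not comparable.

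Myh4, the fast IIb chain of the strongest and least enduring fibres, had spot intensities of 35509 units in control and 34555 in depleted muscle (probe M300008631). On the normalized log2 scale these became 15.13 and 14.97, a log2 ratio of -0.16. Deposited values were 45140.8 and 32396.5, 1.39-fold lower in depleted muscle. The raw spots were thus nearly equal, and the size of the difference comes from how the arrays were scaled to each other. The authors' table multiplies each array by its own factor, 1.27 for control and 0.939 for depleted muscle, which lowers the ratios of bright spots by 0.44 on the log2 scale. It also subtracts about the blank level, which moves the ratios of dim spots by other amounts. Quantile normalization gives equal values to equal ranks, and the Myh4 spot ranked 11 of 23473 probes from the brightest in control and 13 in depleted muscle. Neither spot was the brightest of its array, which reached 51523 and 50836 units. Both were among the few whole-number readings, 12 spots in control and 14 in depleted muscle, none below 32859 and 32762 units. Myh1 and Myh2 were not among them. Whether these brightest spots were read in the same way as the others was not tested.

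Myh1, the fast IIx chain, had spot intensities of 17961 units in control and 14930.4 in depleted muscle (probe M300008632). Normalized log2 levels were 14.19 and 13.76, a log2 ratio of -0.43, so the level was 1.34-fold lower. Its deposited values of 22809.8 and 13978.1 were 1.63-fold apart. Myh1 was lower in depleted muscle in the raw spots, in the normalized levels and in the deposited values alike. In deposited values it passed a 1.5-fold difference, as did 7.19% of genes in that direction. Its ratio lay at percentile 3.35 of all genes compared, and at percentile 14.1 of the brightest 10% of genes.

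Myh2, the fast IIa chain of fatigue-resistant fibres, had spot intensities of 20389.9 units in control and 23006 in depleted muscle (probe M200007574). Its normalized log2 levels were 14.44 and 14.39, a log2 ratio of -0.05. Deposited values were 25900.9 and 21557.0. The raw spot was higher in depleted muscle and the deposited value lower, so no direction can be given for Myh2. The local background around this spot was 58.9% of its intensity in control and 25.8% in depleted muscle. Subtracting it put Myh2 at 1.16, and 10.4% of all genes then came out at least 2-fold higher.

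The 3 fast adult chains kept their order under all 14 processing alternatives. Most of these could not change it, because they shift such bright probes alike or leave their values unaltered. The count of 14 therefore carries little weight. Myh2 had the highest ratio, Myh4 the middle one and Myh1 the lowest. Myh2 exceeded Myh1 by 0.38 on the log2 scale after quantile normalization and by 0.44 in deposited values. Myh4 exceeded Myh1 by 0.26 and 0.23, and Myh2 exceeded Myh4 by 0.12 and 0.21. The first of these differences is larger than 1 SD of spot error (0.21) on both scales and the second only just larger. The last lies within it after quantile normalization and at its edge in deposited values. These differences show unequal change within the arrays, not which chain changed, and they were picked out after the values had been seen. They rest on 1 mouse per group.

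Myh7, the slow chain of type I fibres, had spot intensities of 433.6 units in control and 406.1 in depleted muscle (probe M400004335). Normalized log2 levels were 9.02 and 8.51, a log2 ratio of -0.51, the lowest of the family on this scale. In deposited values Myh1 was the lowest, at -0.71. Deposited values were 505.6 and 346.4, 1.46-fold lower. Its spots were close before normalization, with a log2 ratio of -0.09. The normalized ratio lay at percentile 2.15 of all genes compared, just outside the central 95% of their ratios, which ran from -0.48 to 0.52. The brightest 10% of genes, a set without Myh7, had a wider central 95%, from -0.94 to 0.95. Against that set the Myh7 ratio lay inside this range, at percentile 9.19.

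Among the 5 members whose spots exceeded the limit more than 10 times on the control array, Myh7, Myh1, Myh8, Myh4 and Myh2 stood in this order of rising ratio. Neighbours in it differed by 0.08, 0.12, 0.14 and 0.12, all within 1 SD of spot error. Of the 10 pairs that these members form, 5 differed by more than 1 SD of spot error and 1 by more than 2 SD (0.42), and in deposited values these counts were 6 and 1. In the main values the widest pair was Myh2 and Myh7, 0.47 apart, and in deposited values it was Myh2 and Myh1.

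Of the developmental chains, Myh8, the perinatal chain, had spot intensities of 431.1 units in control and 468.5 in depleted muscle (probe M400005293). Normalized log2 levels were 9.02 and 8.71, a log2 ratio of -0.30. Deposited values were 502.5 and 405.0. As for Myh2, the raw spot and the scaled values differ in direction. Both arrays measured Myh8 well above every blank spot.

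Myh3, the embryonic chain and a usual mark of regenerating fibres, was measured by 2 probes. The brighter probe, M400006302, read 67.1 units in control and 94.4 in depleted muscle, with deposited values of 39.2 and 53.9 and a log2 ratio of 0.20. The dimmer probe, M400005730, read 44.7 and 48.7 units, with deposited values of 10.8 and 11.1 and a ratio of 0.01. The probes therefore disagree on whether Myh3 was higher at all. Neither probe was over 55.9 units above the limit on either array, a range in which the offset of the background correction draws ratios toward 0.

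Myh13, the extraocular chain, and Myh6, the cardiac alpha chain, lay near background on both arrays. The brighter Myh13 probe, M400007126, read 42.1 and 49.7 units, with deposited values of 7.4 and 11.9, and its log2 ratio was 0.10. The dimmer probe, M300008593, read 39.9 and 40.7 units with deposited values of 4.6 and 3.5. In deposited values the ratios of these probes were 0.69 and -0.39, opposite in sign. The dimmer probe was matched or exceeded by 1 of 96 negative control spots in control and by 8 in depleted muscle, so it gives no level of Myh13. Myh6 (probe M300012836) read 42.3 and 45.3 units, with deposited values of 7.7 and 7.8 and a log2 ratio of 0.00. The negative controls reached 40.2 and 43.2 units, so Myh6 and the brighter Myh13 probe stood only a few units above them. The heart hormone Nppa was as dim, at 41.5 and 44.1 units, and the atrial light chain Myl7 read 61.5 and 68.9. Both of these cardiac genes were thus dim on both arrays, but not every gene of the cardiac list was. Actc1, the cardiac and embryonic actin, read 7780 and 632 units, and the light chain Myl3, shared with slow fibres, 4487 and 5465.

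**Figure D2:**
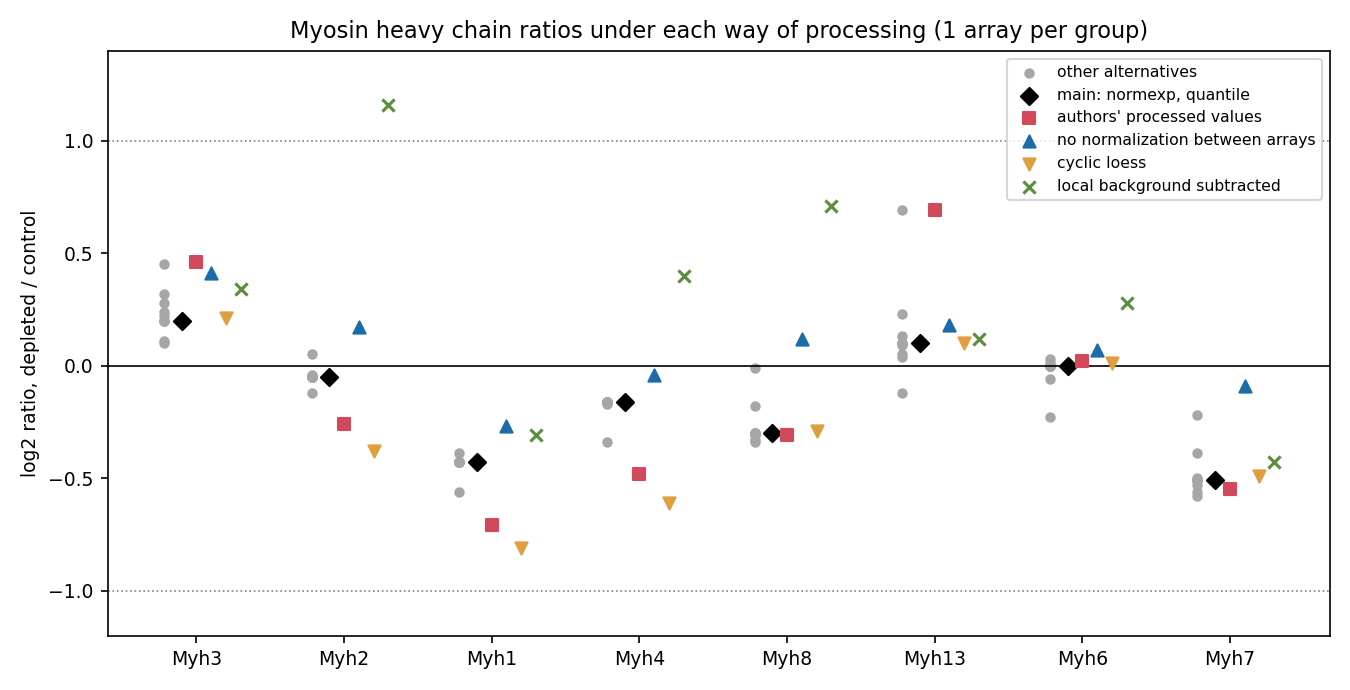
Log2 ratio (depleted over control) of the 8 members, 1 array per group, in the main setting (black diamonds), the authors' processed values, without normalization between arrays, with cyclic loess, with the local background subtracted, and under the other alternatives (grey). Dotted lines mark a 2-fold difference. Myh1 and Myh7 lie below 0 and Myh3 above 0 throughout, Myh2, Myh8, Myh4, Myh13 and Myh6 appear on both sides, and Myh2 with the local background subtracted (1.16) is the only point past 2-fold.

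The genes that work with these chains were read in the same way. None of the 13 measured thick filament partners was 2-fold apart. Of these partners 10 had ratios below 0, against 52.4% of all genes compared, and the median was -0.14. Myl4, the embryonic and atrial light chain, was at -0.44, Mybpc1, the slow myosin-binding protein C, at 0.36, Mylpf, the fast regulatory light chain, at -0.30, and Mylk2, the kinase that phosphorylates it, at 0.30. Without normalization between arrays the median of these partners was 0.16, so its sign depends on the scaling. With the local background subtracted Myl4 and Mylk2 turned to 0.19 and -0.27, and 4 partners, among them Mylpf at -1.07, passed 2-fold. The probes of Ttn, the giant titin, spanned -1.37 to -0.19.

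The fast isoforms of other sarcomere and calcium-handling proteins had a median of -0.07 over 11 genes, and in deposited values of -0.46. Casq1, the calcium buffer of the sarcoplasmic reticulum, and Pvalb, the cytosolic calcium buffer of fast fibres, were at least 2-fold lower, at -2.03 and -1.25, while the fast myosin chains lay between -0.43 and -0.05. Casq1 was at least 2-fold lower under all 14 alternatives. Pvalb was at -0.92 without normalization between arrays and turned to 8.55 with the local background subtracted. The slow isoforms had a median of 0.29 over 10 genes, with Myoz2, a Z-disc protein of slow fibres, at 0.78 and the slow troponins Tnnt1, Tnnc1 and Tnni1 at 0.71, 0.65 and 0.58. Of the 10 slow isoforms 6 lay above 0 and 4 below, against 52.4% of all genes compared below 0. The 4 below, named after their values were seen, were Casq2 (-0.37), the light chain Myl3 (-0.16), Myoz3 (-0.10) and the light chain Myl2 (-0.08). Without normalization between arrays all 4 were at 0.00 or above. Myh7, the myosin chain of the same fibres, was also below 0 at -0.51, and at -0.09 without normalization between arrays. In deposited values Myh7 was at -0.55 and Tnnt1 at 0.75. With the local background subtracted the median of the slow isoforms turned to -1.03, with Tnni1 at -1.52 and Myoz2 at -7.71. Under the same setting Tnnt1 and Tnnc1 came out higher, at 7.63 and 2.50. Without normalization between arrays the median of the slow isoforms was 0.75.

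Myosin needs chaperones to fold and is removed by ubiquitin ligases. Among 5 measured genes of myosin folding and assembly, 0 were 2-fold apart and the median was -0.01. Smyd1, a methyltransferase of sarcomere assembly, was at -0.89, Unc45b, the muscle myosin chaperone, at -0.23, Hspa8 at 0.30, Hsp90aa1 at 0.15 and Unc45a at -0.01. The sign of this median turned under 5 alternatives, and Unc45b turned above 0 under 3. With the local background subtracted Unc45a, Smyd1 and Hspa8 passed 2-fold, at -2.84, -2.57 and 2.36. Of the 4 ligases of the thick filament and of atrophy, Fbxo32 and Trim63, which encodes MuRF1, the ligase known to mark myosin heavy chain for degradation, were at 3.19 and 2.71. Their spots read 454.4 and 5799 units for Fbxo32 and 155.3 and 1458 units for Trim63 in control and depleted muscle. The relatives Trim54 and Trim55 were at 0.38 and -0.31. Fbxo32 and Trim63 were past 2-fold under all 14 alternatives, and Trim55 turned above 0 under 2. In the same muscle the lowest myosin heavy chain ratio was -0.51 (Myh7) in the main setting, and across the alternatives -0.81 (Myh1 with cyclic loess). The array measured transcripts, and protein was not measured here.

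Of the regulators of fibre type 0 reached 2-fold in the main setting. Of 11 measured fast fibre transcription factors 9 had ratios below 0, against 52.4% of all genes compared, with a median of -0.08. Some of these 9 were close to 0, such as Eya3 (-0.01), Prdm1 (-0.02) and Mafa (-0.07). Smarcd3, which recruits chromatin remodelling to muscle genes, was at -0.94, Nfix, which drives the fetal switch of myosin, at -0.56, Myod1 at -0.53 and Maf at -0.40. Of 11 slow fibre regulators 7 were below 0, against the same 52.4%, with a median of -0.25. Ppargc1a, the coactivator of oxidative fibre genes, was at -0.96, Mef2c, whose family binds the MEF2 site named above, at -0.88, Esrrg at -0.78 and Vgll2 at 0.73. The second probe of Ppargc1a gave -0.50. In deposited values Ppargc1a passed 2-fold at -1.11, and without normalization between arrays Vgll2 did at 1.16. With the local background subtracted Nfix and Maf turned above 0. Mef2c (-1.87), Myod1 (-1.81), Esrrg (-1.57), Tbx15 and Nfatc1 (both -1.50) were then at least 2-fold lower. Sox6 (1.26) and Vgll2 (1.13) were at least 2-fold higher under that setting. Without normalization between arrays the medians were 0.05 and 0.07, so neither list has a direction that holds under every scaling.

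The developmental and regeneration genes had a median of -0.02 over 10 genes, with Actc1, the cardiac and embryonic actin, at -3.96 and the others between -0.53 and 0.20. The 9 cardiac markers had a median of -0.04, and Actc1, which this list shares, was again the member past 2-fold. Myh3 and Myh8, the developmental myosins, had ratios of 0.20 and -0.30. Of the 4 non-sarcomeric chains of the same myosin class measured 0 reached 2-fold, with Myh11 of smooth muscle at 0.39, Myh14 at 0.18, Myh9 at 0.14 and Myh10 at 0.02. Myh10 lay near background, and it came out at -0.07 with median scaling and at -0.24 with 75th percentile scaling. With the local background subtracted Myh9 and Myh10 came out at -0.72 and -0.83. Myh11 and Myh14 then passed 2-fold, at 1.88 and 2.02, and the median of the 4 was 0.58.

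**Figure D3:**
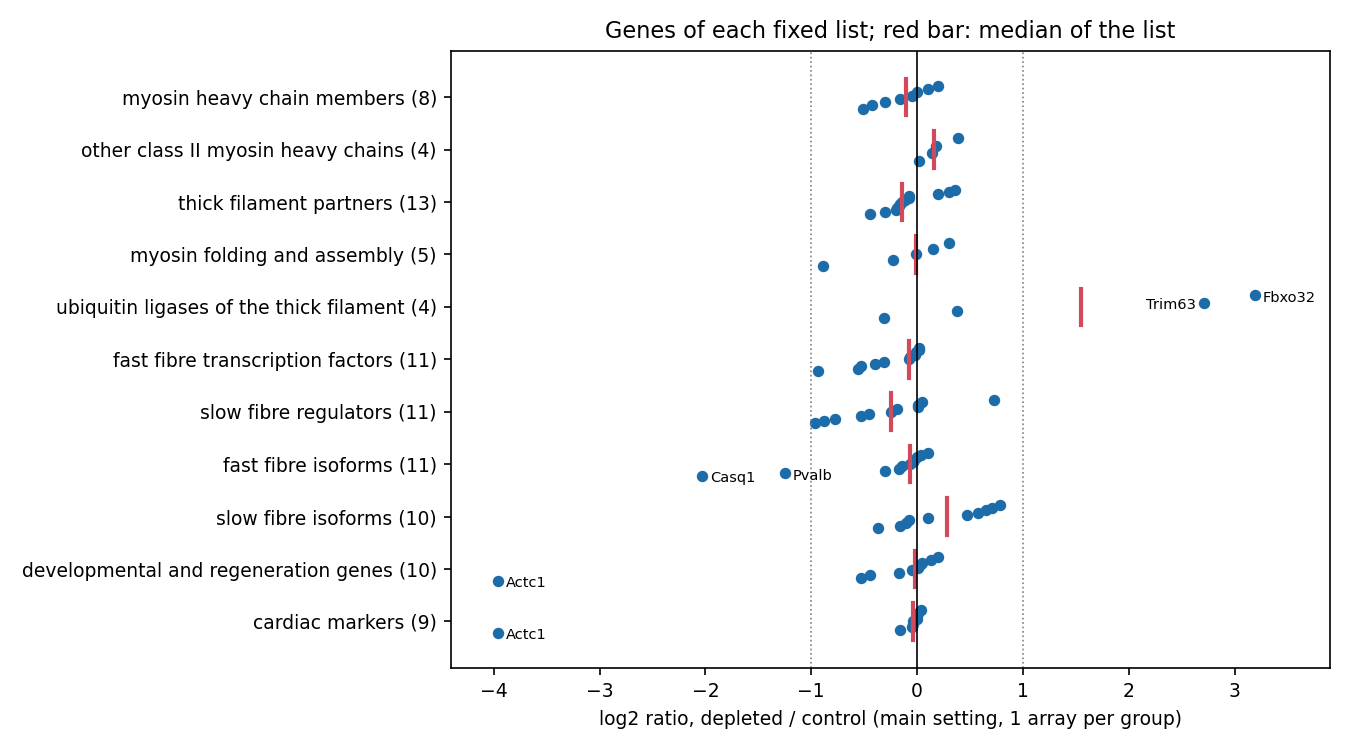
Log2 ratio (depleted over control, main setting, 1 array per group) of each gene in the lists, with the number of genes measured in brackets, the median of each list as a red bar and a 2-fold difference as dotted lines. The 8 myosin heavy chains lie between -0.51 and 0.20, while Fbxo32 and Trim63 lie at 3.19 and 2.71 and Casq1, Pvalb and Actc1 at -2.03, -1.25 and -3.96.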

How the data were processed

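Per the file headers, each deposited scanner intensity is a spot's median pixel at 635 nm, combined over 3 scan gains and neither background-subtracted nor normalized. A second file holds the authors' processed intensities, which are a straight line of the scanner values on each array. Per the labels' protocols, Cy5 was coupled to amplified RNA. Scanner, software and genome build were not given in the sources used here.

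Spots were corrected with normexp (offset 50) in limma 3.58.1 (R 4.3.3), taken to log2 and quantile-normalized over 23473 probes. Each gene whose brightest probe passed the background limit on either array entered the comparison, with a dim array set to the higher of its value and the lowest above background. Python 3.11.15, numpy 2.4.6, pandas 2.3.3 and matplotlib 3.10.9 were used, and the steps were tested on simulated data, where the offset drew known ratios toward 0, more so for decreases. Symbols of all 10 member probes matched RefSeq by Entrez gene. The text names all members and, per list, the genes past 2-fold or otherwise the 4 largest ratios, all genes of lists of up to 6, and Pdgfra. The members, lists and alternatives were chosen with earlier results of these data known. Some listed genes, among them Myh7b, Myh15, Mybph, Hsp90ab1, Mymx and Hba-a1, were not analysed here. Alternatives changed the offset, background, scaling, filter, probes and threshold, or used the authors' values. No sample was left out.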

Additional observations from a re-analysis of the deposited data

How the results depend on the processing

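No paired analysis was possible because there was 1 array per group, and none could be left out. A value counted as moved where it changed by more than the SD of replicate spot ratios (0.15, or 0.21 for a difference). The block median was subtracted as an alternative added after seeing the data, and it moved no member. Under 14 alternatives Myh1 and Myh7 stayed below 0, and Myh3 stayed above 0. Without normalization between arrays Myh1 was at -0.27, Myh2 at 0.17, Myh7 at -0.09, Myh3 at 0.41 and Myh8 at 0.12. With cyclic loess Myh1 was at -0.81, Myh2 at -0.38 and Myh4 at -0.61, and in the authors' processed values Myh1 was at -0.71, Myh2 at -0.26, Myh4 at -0.48, Myh3 at 0.46 and Myh13 at 0.69. Scaling to the 75th percentile, which shifts the median of all genes to -0.19, put Myh4 at -0.34, Myh13 at -0.12 and Myh6 at -0.23, and median scaling put Myh7 at -0.22 and Myh8 at -0.01. With the blank mean subtracted Myh3 was at 0.45 and Myh13 at 0.69. With the local background subtracted Myh2 was at 1.16, the 1 member past 2-fold, Myh4 at 0.4, Myh8 at 0.71 and Myh6 at 0.28. The differences were then 1.47 for Myh2 over Myh1, 0.76 for Myh2 over Myh4 and 0.7 for Myh4 over Myh1. They kept their sign under all 14, most of which could not change it for probes this bright. The cause of these shifts was not tested. At 1.5-fold and 3-fold 0 members passed. Of 238 list medians under the alternatives 181 stayed within the spot SD and 57 moved. The sign turned for 16 of the 238, in 10 of 17 lists, and in none of the lists whose main median was 2-fold or more. Signal over background limits Myh3, Myh6 and Myh13.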
